A study of Neogale vison with 6 samples.

Results

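Cells cut proteins outside the plasma membrane with several related families of zinc proteases, and the RNA of 64 genes of these families was examined here in mink lung cells with a reduced cholesterol level. The members were all rows of the count table whose gene symbol is that of an ADAM, an ADAMTS, an ADAMTS-like protein (ADAMTSL), a matrix metalloproteinase (MMP) or a tissue inhibitor of metalloproteinases (TIMP). They comprised 18 ADAM, 18 ADAMTS, 5 ADAMTSL, 19 MMP and 4 TIMP genes, out of 24526 genes. Some family members known in mammals had no row under these symbols, namely ADAMTS13, MMP3, MMP7, MMP10, MMP23B and ADAM30, and they were not analysed here. ADAM10 stands in the table under the symbol ADA10. It therefore falls outside the naming rule, and its values are given beside those of ADAM17 without being counted among the members.

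ADAMs are membrane-anchored proteases, and several of them are sheddases, which release the outer part of growth factors, cytokines and adhesion proteins from the cell surface. ADAMTS proteases are secreted, bind the matrix through thrombospondin repeats, and cut proteoglycans, procollagens and other matrix proteins, while the ADAMTSL proteins share their non-catalytic domains but have no protease domain. MMPs degrade collagens and other matrix proteins, either as secreted enzymes or tethered to the membrane (the membrane-type MMPs), and most are made as inactive precursors. TIMPs bind the active site of MMPs and of some ADAM and ADAMTS enzymes. Sheddase activity in particular is known to depend on cholesterol-rich membrane domains, which is background and was not measured in these libraries.

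The cells were Mv1Lu, an epithelial line derived from mink lung, and all libraries came from this 1 line. Poly(A) RNA was sequenced in 3 libraries of untreated cells (control) and in 3 libraries of cells subjected to cholesterol depletion (CD). For CD the cells received 50 μM lovastatin, a statin that blocks sterol synthesis, together with 50 μM mevalonate for 16 h in medium with 10% lipoprotein-deficient serum (LPDS). For another assay of the study, untreated cells are described as kept in 10% fetal calf serum, but the serum of the control cells sequenced here is not stated; no library had only one of these agents, so the parts of the statin, the mevalonate and the LPDS in any difference cannot be told apart. Nothing says that the replicates were separate cultures, and the p-values then measure only the spread between these libraries, which may be technical.

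The libraries held between 13473820 and 18633764 reads assigned to genes. Levels are given as CPM, the count of a gene per 1000000 reads on genes, after scaling by edgeR's TMM factors, and a change as the log2 fold change of CD over control. A gene was called higher or lower where its false discovery rate (FDR) in edgeR's quasi-likelihood test, with Benjamini-Hochberg adjustment over the 12148 genes that passed the filter on low counts, was below 0.05. By this rule 47.7% of all tested genes were called, 24.8% as higher and 22.9% as lower in CD, and in 58.0% the 3 CD libraries did not overlap with the 3 control libraries. These shares are the background for every count below. The sterol-regulated genes HMGCS1 and INSIG1, used as a check of the treatment, were both higher in CD (log2 fold changes 3.43 and 1.67). Of 10 epithelial markers 8 had a row: EPCAM, CDH1, CLDN3 and CLDN7 had at most 18 counts over the 3 libraries of either group, whereas KRT19, TJP1, OCLN and CLDN4 passed the filter. CLDN4 was at 0.502, 0.867 and 0.441 CPM in control and passed only with its CD libraries, the limit being 0.669 CPM in at least 3 libraries. The epithelial label is the study's description of the line and was not tested here. The summed level of the 8 markers lay between 1090 and 1215 CPM in control and between 584 and 670 CPM in CD. The fall of this sum was that of KRT19 (936 ± 66.9 to 458 ± 77.1 CPM, SD, n = 3 each), while TJP1 and OCLN were not called. CLDN4 was higher in CD (log2 fold change 3.55, edgeR FDR 9.61e-06), but it was tested only through its CD libraries. In bulk RNA of this kind, fewer cells of a type and less RNA per cell cannot be told apart. The share of unmapped reads ranged from 4.25% to 18.4% among the control libraries and from 3.54% to 9.37%, the latter in replicate 3, among the CD libraries, so mapping varied within both groups and was poorest in control replicates 1 and 2. CD replicate 3 was the lowest of the 3 CD libraries in 41.0% of all tested genes and in 17 of the 28 tested members (60.7%). The part of this library in the results was not tested beyond repeating the fit without it, and the calls of members that changed without it are named below.

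Metalloprotease RNA shifted in both directions after CD. ADAMTS15 was nearly lost, ADAMTS1, ADAMTS5 and ADAMTS7 rose, the membrane-type MMP15 rose while the membrane-type MMP24 fell, and reads of MMP2 and MMP13 appeared from a control level close to 0. None of the TIMPs, the inhibitors of these enzymes, was called. Of the 64 members, 12 had no count in any library and 24 had counts too low to test, at most 37 over the 6 libraries. Of the 28 tested members, 7 were higher (25%) and 7 lower (25%), which is close to the 24.8% and 22.9% of all genes. MMP2 and MMP13, higher, and ADAMTSL5, lower, were tested only because the group where they are high passed the count filter. The same holds for ADAMTS15 and ADAMTS3, lower, where in CD only replicate 1 reached the filter's limit of 0.669 CPM. In 17 of 28 (60.7%) the groups did not overlap, against 58.0% of all genes. The median log2 fold change of the tested members was -0.11, and that of all tested genes 0.06. These shares lie near the background, and what follows concerns single members. The number of members called lower was between 5 and 11 when 1 library was left out. It was 11 without CD replicate 1, when ADAM9, ADAMTS20, MMP16 and TIMP3 were called as well, and the number called higher was between 6 and 9.

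**Figure D1:**
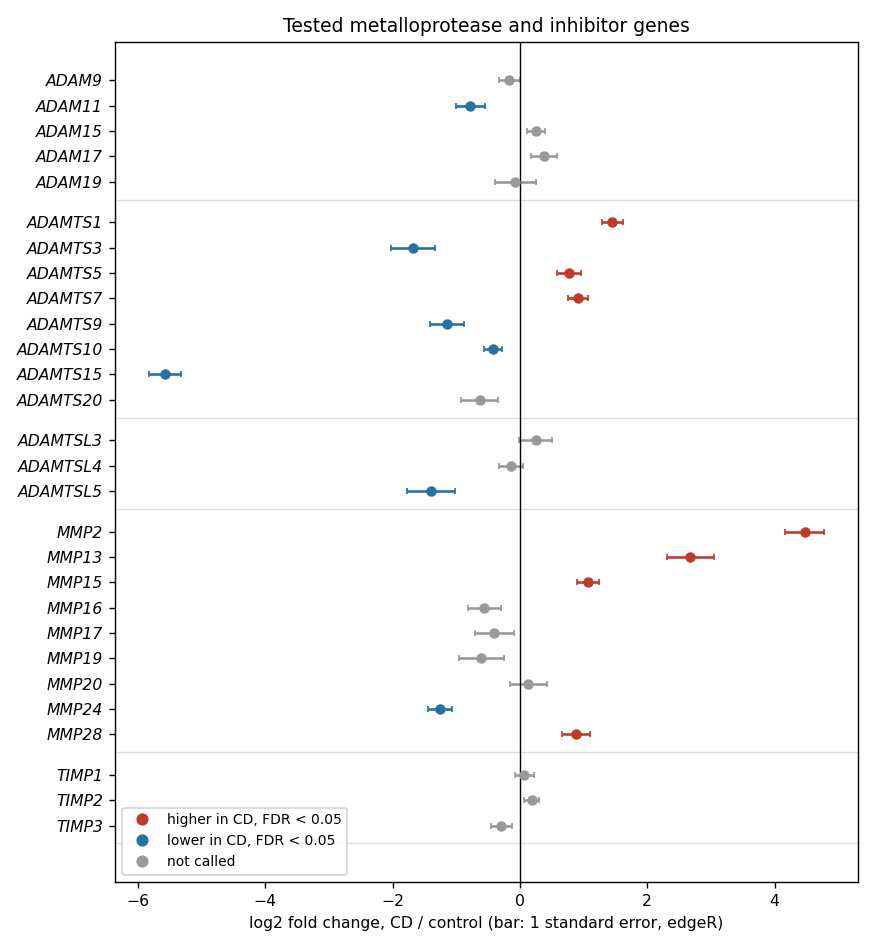
Log2 fold change of CD over control (x axis) for the 28 tested members, grouped by family from ADAM at the top to TIMP at the bottom. Points are edgeR estimates and bars 1 standard error; red and blue mark the 7 members called higher and the 7 called lower at an FDR below 0.05, and ADAMTS15 (-5.58) and MMP2 (4.47) lie farthest from 0.

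The ADAMTS family held the largest share of called members. Of its 18 genes, 2 had no count, 8 had counts too low to test, and 8 were tested, with 3 higher and 4 lower. That is 87.5% called, against 47.7% of all tested genes, but it rests on 8 genes. Of the 4 lower, ADAMTS15 and ADAMTS3 passed the count filter only with their control libraries. In all 8 the groups did not overlap, against 58.0% of all tested genes. The proteases that cut aggrecan, versican and related proteoglycans (ADAMTS1, ADAMTS4, ADAMTS5, ADAMTS8, ADAMTS9, ADAMTS15 and ADAMTS20) were split: of the 5 tested, 2 rose and 2 fell.

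ADAMTS15 (ENSNVIG00000021039), a versican- and aggrecan-cleaving protease, had the largest change of all members. Its level was 26.9, 21.0 and 26.9 CPM in control replicates 1, 2 and 3 and 0.676, 0.429 and 0.432 CPM in CD replicates 1, 2 and 3. Every control library was thus far above every CD library, and the CD level rested on 24 counts in all against 1156 in control. ADAMTS15 passed the count filter only with its control libraries, since CD replicates 2 and 3 were below the limit of 0.669 CPM. The mean fell from 25.0 ± 3.41 to 0.513 ± 0.142 CPM (SD, n = 3 each), and the fitted reduction was 47.7-fold (log2 fold change -5.58, SE 0.25, edgeR FDR 3.11e-07). Among the reads on ADAMTS genes, ADAMTS15 made up 14.9% ± 0.694 in control and 0.222% ± 0.0458 in CD (SD, n = 3 each).

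ADAMTS1 (ENSNVIG00000003683), a proteoglycanase induced in many cells by inflammation and stress, moved the other way. It measured 17.7, 18.4 and 16.0 CPM in the control libraries and 56.5, 46.0 and 39.5 CPM in CD replicates 1, 2 and 3. The lowest CD library was above the highest control library. The mean of 47.4 ± 8.58 CPM in CD was 2.73 times the 17.4 ± 1.20 CPM of control (SD, n = 3 each; on the log2 scale 1.45, SE 0.16, edgeR FDR 6.51e-05).

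ADAMTS5, the main aggrecanase of mouse cartilage, was at 45.9, 37.6 and 42.9 CPM in control and at 91.0, 70.2 and 53.2 CPM in CD replicates 1, 2 and 3, with CD replicate 3 the closest to the control range (log2 fold change 0.76, SE 0.19, edgeR FDR 0.00723). ADAMTS7, which cuts cartilage oligomeric matrix protein, was at 46.6, 36.3 and 49.5 CPM in control and at 72.3, 91.8 and 85.4 CPM in CD (log2 fold change 0.91, SE 0.15, edgeR FDR 7.99e-04). Both were thus higher in every CD library than in any control library. In the RefSeq annotation of the mink (assembly ASM_NN_V1, used only for gene order because the counts were made on another assembly), ADAMTS5 and ADAMTS1 are direct neighbours, and both were higher in CD. In no other pair of neighbouring members were both genes tested, so any part of gene position was not tested. ADAMTS15 has ADAMTS8, another proteoglycanase, as its direct neighbour. ADAMTS8 had 9, 13 and 6 counts in control and 5, 1 and 2 counts in CD and did not pass the filter on low counts. In a fit without that filter its log2 fold change was -1.80 (edgeR FDR 0.0223), and this gene was singled out after its values were seen.

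Further ADAMTS genes were lower in CD at low or modest levels. ADAMTS3 (ENSNVIG00000015857), a procollagen N-propeptidase that also processes the lymphangiogenic factor VEGFC, was at 1.79, 1.59 and 1.82 CPM in control and at 0.799, 0.491 and 0.288 CPM in CD (log2 fold change -1.68, SE 0.34, edgeR FDR 0.00258). ADAMTS9 (ENSNVIG00000011223), a conserved versican-cleaving protease, was at 3.44, 3.04 and 3.58 CPM in control and at 2.03, 1.47 and 1.01 CPM in CD (log2 fold change -1.14, SE 0.27, edgeR FDR 0.00607). In both genes the highest CD library, replicate 1, stayed below the lowest control library, and ADAMTS3 rested on 80 counts in control and 25 in CD. ADAMTS3 passed the count filter only with its control libraries. ADAMTS10, which associates with fibrillin microfibrils, had a smaller difference (log2 fold change -0.42, SE 0.15, edgeR FDR 0.0353), and it was not called when control replicate 1, 2 or 3 was left out (edgeR FDR 0.12, 0.0572 and 0.14). ADAMTS20 was not called with all libraries (log2 fold change -0.63, edgeR FDR 0.0985), and without CD replicate 1 it was (-0.87, edgeR FDR 0.0373). The other procollagen N-propeptidases, ADAMTS2 and ADAMTS14, had 25 and 0 counts over the 6 libraries.

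**Figure D2:**
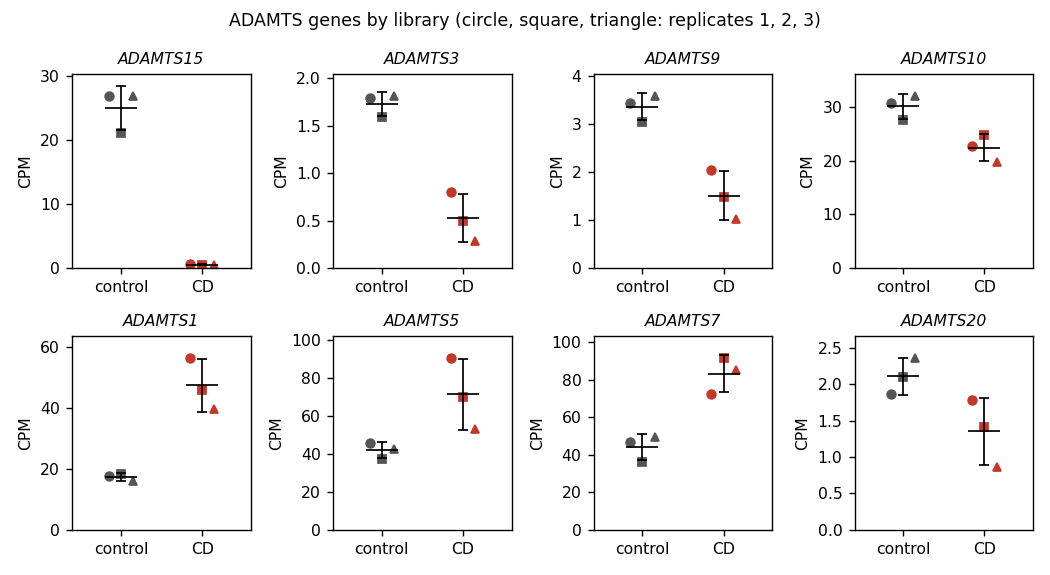
Level of the 8 tested ADAMTS genes in each library (y axis, CPM from 0; x axis, group), with circles, squares and triangles for replicates 1, 2 and 3 and a line and bar for the mean ± SD (n = 3). In every panel the 3 control (grey) and 3 CD (red) libraries do not overlap; ADAMTS15 goes from 25.0 to 0.513 CPM and ADAMTS1 from 17.4 to 47.4 CPM on average.

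Because the members moved in opposite directions, the make-up of the ADAMTS reads changed along with their sum. Their summed level was 168 ± 15.5 CPM in control and 230 ± 24.8 CPM in CD (SD, n = 3 each), 1.37 times as high, with no overlap between the groups. These sums and shares count reads and are not corrected for gene length. Within each library, reads of ADAMTS5 outnumbered those of ADAMTS15 1.70-, 1.79- and 1.59-fold in control replicates 1, 2 and 3, and 135-, 164- and 123-fold in CD replicates 1, 2 and 3. This ratio, of a gene called higher to a gene called lower, restates those calls. The share of ADAMTS1 among ADAMTS reads went from 10.5% ± 1.64 to 20.6% ± 1.86 and that of ADAMTS7 from 26.2% ± 1.91 to 36.7% ± 6.86 (SD, n = 3 each).

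Of the 5 ADAMTSL genes 3 were tested. ADAMTSL5 (ENSNVIG00000004460), a microfibril-associated protein, was at 0.860, 1.08 and 0.826 CPM in control and at 0.492, 0.307 and 0.216 CPM in CD (log2 fold change -1.40, SE 0.37, edgeR FDR 0.0116). Its groups did not overlap, but it passed the count filter through the control libraries alone, and the DESeq2 test did not call it (FDR 0.0652). ADAMTSL4, which also binds fibrillin fibres, was not called (log2 fold change -0.14, edgeR FDR 0.56). ADAMTSL3 was at 37.0, 35.6 and 42.8 CPM in control and at 61.7, 48.3 and 26.6 CPM in CD, so CD replicates 1 and 2 were above and replicate 3 below all control libraries. It was not called with all libraries (log2 fold change 0.25, edgeR FDR 0.45), it was called higher without CD replicate 3 (0.48, edgeR FDR 7.46e-04), and without CD replicate 1 its sign was reversed (-0.03, edgeR FDR 0.93).

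Of the 19 MMP genes, 4 had no count, 6 had counts too low to test, and 9 were tested, with 4 higher and 1 lower. Of the 4 higher, MMP2 and MMP13 passed the count filter through CD alone, and without them 2 of 7 were higher. Their summed level was 137 ± 15.3 CPM in control and 218 ± 45.4 CPM in CD (SD, n = 3 each), 1.59 times as high, again with no overlap.

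The membrane-type MMPs carried most of the reads of this family in both groups. MMP15 (ENSNVIG00000014370), a membrane-anchored protease that can activate the precursor of MMP2, was at 88.9, 71.5 and 92.8 CPM in control and at 170, 219 and 142 CPM in CD. Its lowest CD library was well above its highest control library. The mean rose from 84.4 ± 11.3 to 177 ± 38.9 CPM (SD, n = 3 each), with a fitted fold of 2.09 (log2 1.07, SE 0.17, edgeR FDR 6.38e-04). MMP24 (ENSNVIG00000015595), the membrane-type MMP best known from the nervous system, was at 37.6, 29.8 and 35.9 CPM in control and at 15.9, 16.5 and 10.8 CPM in CD. Here every CD library was below every control library. The mean fell from 34.4 ± 4.11 to 14.4 ± 3.12 CPM (SD, n = 3 each), with a fitted reduction of 2.39-fold (log2 -1.26, SE 0.19, edgeR FDR 4.19e-04). Within single libraries the ratio of MMP15 to MMP24 reads was 2.36, 2.40 and 2.59 in control and 10.7, 13.2 and 13.1 in CD. A ratio within a library does not depend on how libraries are scaled. This pair joins a gene called higher with a gene called lower, so the change in the ratio restates those calls and adds no support. MMP15 made up 61.4% ± 1.71 of the MMP reads in control and 80.8% ± 1.12 in CD, and MMP24 25.1% ± 0.748 and 6.60% ± 0.737 (SD, n = 3 each).

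The other membrane-type MMPs were not called or not tested. MMP16 had a log2 fold change of -0.56 (edgeR FDR 0.10) and was called lower without CD replicate 1 (-0.86, edgeR FDR 0.0104), and the GPI-anchored MMP17 was at -0.40 (edgeR FDR 0.30). MMP14, the most widely expressed activator of MMP2 in other cells, had 1 count in all 6 libraries together, and MMP25 had 6.

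MMP2 (ENSNVIG00000017094), the gelatinase that cuts denatured and basement membrane collagen, was at 0.143, 0.145 and 0.165 CPM in control and at 3.50, 3.50 and 3.67 CPM in CD replicates 1, 2 and 3. All 3 CD libraries were far above the control libraries and close to each other, although the level stayed low. The counts were 7 over the control and 165 over the CD libraries, which after adjustment for library size is a ratio of 23.3 with an exact 95% Clopper-Pearson interval from 11.1 to 58.9, which covers counting error only. The log2 fold change was 4.47 (SE 0.31, edgeR FDR 2.90e-06). MMP2 passed the filter on low counts (0.669 CPM in at least 3 libraries) through its CD libraries alone. MMP9, the other gelatinase, had 4, 1 and 6 counts in control and 7, 6 and 13 counts in CD and was not tested.

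MMP13 (ENSNVIG00000021947), a collagenase of bone and cartilage, was at 0.215, 0.506 and 0.606 CPM in control and at 3.50, 3.25 and 2.02 CPM in CD, again with no overlap. It had 21 counts in control and 138 in CD, an adjusted ratio of 6.50 with an interval from 4.09 to 10.8 by the same method (log2 fold change 2.68, SE 0.37, edgeR FDR 2.66e-04), and it too passed the filter through CD alone, so that a difference was a condition of being tested. In the RefSeq gene order MMP13 lies in a cluster with MMP12, MMP1, MMP8, MMP27, MMP20 and MMP7, the last of which had no row. The interstitial collagenases MMP1 and MMP8 had 5 counts and 1 count over the 6 libraries, MMP12 and MMP27 had none, and MMP20, the enamel protease, was not called (log2 fold change 0.13, edgeR FDR 0.76, and -0.02 without control replicate 1). MMP13 and MMP20 were thus the only genes of this cluster that could be tested.

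MMP28, a secreted MMP of epithelia that is activated by furin, rose from 8.02, 5.85 and 6.39 CPM in control to 10.2, 16.0 and 11 CPM in CD (log2 fold change 0.88, SE 0.22, edgeR FDR 0.00918). The groups did not overlap, and without CD replicate 2, its highest library, it missed the threshold (0.62, edgeR FDR 0.0510). MMP19 was not called (log2 fold change -0.61, edgeR FDR 0.18). MMP11 and MMP21 had 4 counts and 0 counts, and MMP26 had none.

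Marker genes of other cell types moved in CD as well. The summed level of 6 leukocyte markers was between 5.64 and 6.89 CPM in control and between 21.8 and 26.9 CPM in CD; CD68 and CSF1R were higher, CD14 was too but passed the count filter through CD alone, while PTPRC, which defines leukocytes, had 1 count in all 6 libraries, ITGAM 1 and CD79A 0. CSF1R passed only with its CD libraries, as control replicate 2 was at 0.434 CPM, below the limit of 0.669 CPM. The summed level of 8 fibroblast markers was between 310 and 387 CPM in control and between 183 and 232 CPM in CD, with THY1 at 0 counts. Most of this sum was COL1A2 and COL3A1; of the 5 fibroblast markers tested, these, COL1A1 and PDGFRB were lower and none was higher, while PDGFRA was not called and LUM and DCN, below the count filter, went from 7 to 35 and from 3 to 15 counts. That of 5 endothelial markers was between 206 and 221 CPM in control and between 75.9 and 124 CPM in CD, with at most 4 counts of CDH5 or KDR over the 6 libraries. This sum was almost all TEK, which was lower (log2 fold change -1.08, edgeR FDR 5.27e-04), while VWF was higher and PECAM1 went from 0 to 11 counts. The part of these shifts in the values of MMP2, MMP13 or any other member was not tested.

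**Figure D3:**
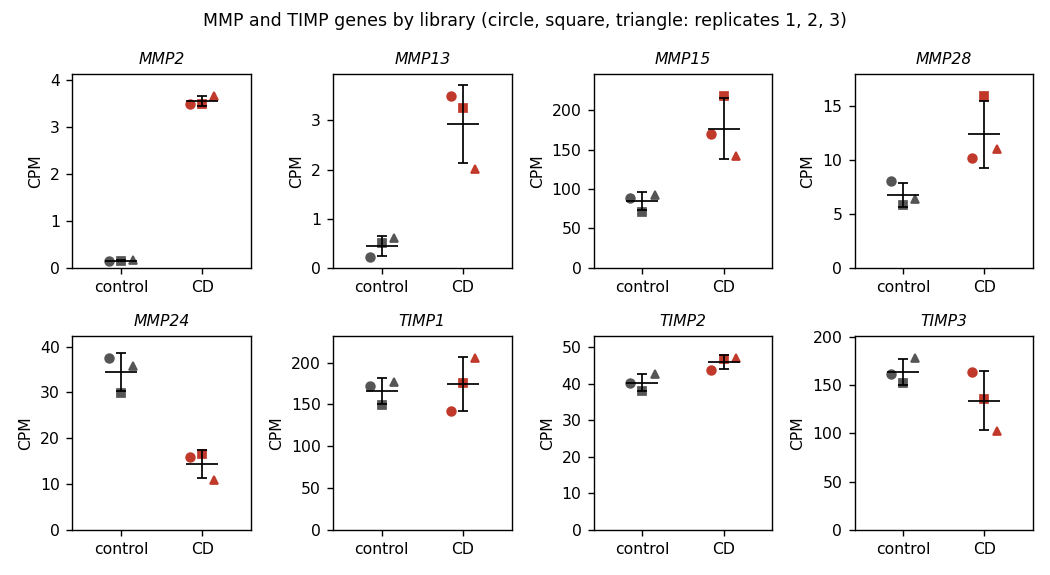
Level of the 5 called MMP genes and the 3 tested TIMP genes in each library (y axis, CPM from 0; x axis, group), with circles, squares and triangles for replicates 1, 2 and 3 and a line and bar for the mean ± SD (n = 3). MMP2, MMP13, MMP15 and MMP28 lie higher and MMP24 lower in all 3 CD libraries, while TIMP1 and TIMP3 overlap between control (grey) and CD (red).

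**Figure D4:**
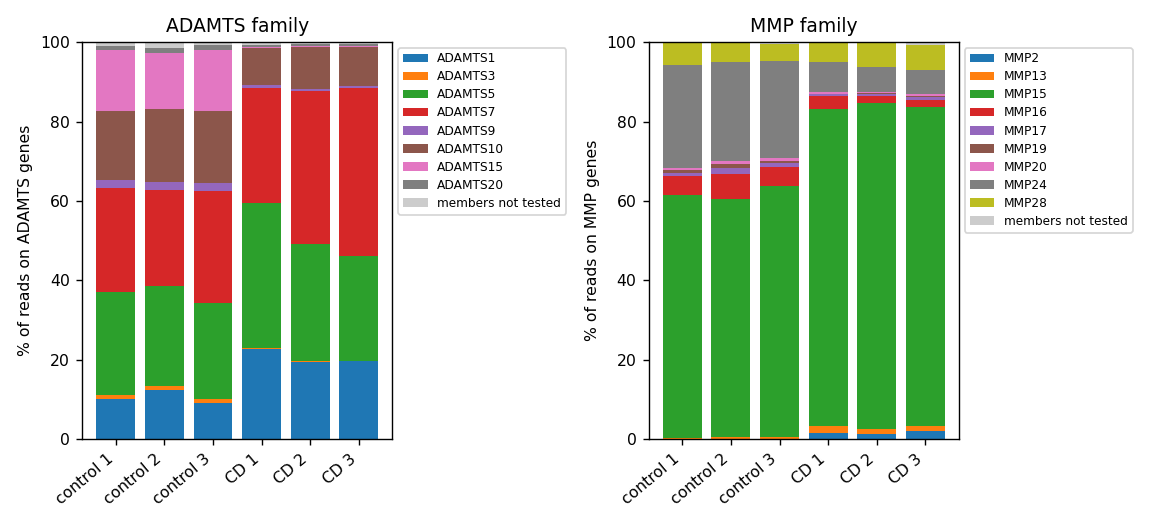
Share of each tested gene in the reads on ADAMTS genes (left) and on MMP genes (right), in percent (y axis), for each of the 6 libraries (x axis), with grey for the members not tested. ADAMTS15 shrinks from 14.9% to 0.222% on average and MMP24 from 25.1% to 6.60%, while MMP15 grows from 61.4% to 80.8%; shares are of reads and not corrected for gene length.

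None of the 3 tested TIMP genes was called, by edgeR with all libraries. Their summed level was 371 ± 30.1 CPM in control and 354 ± 4.18 CPM in CD (SD, n = 3 each). TIMP1, a broad MMP inhibitor, was at 172, 149 and 177 CPM in control and at 142, 175 and 206 CPM in CD (log2 fold change 0.07, SE 0.15, edgeR FDR 0.72), and the groups overlapped; without CD replicate 3 the value was -0.10. TIMP2, which both inhibits MMPs and takes part in the activation of MMP2, was at 40.2, 38.0 and 42.8 CPM in control and at 43.7, 46.9 and 47.2 CPM in CD. The groups did not overlap, but the difference was small (log2 fold change 0.19, SE 0.12, edgeR FDR 0.22). TIMP3, the matrix-bound inhibitor of ADAM17 and of several ADAMTS proteases, was at 162, 152 and 179 CPM in control and at 164, 135 and 103 CPM in CD, with CD replicate 1 within the control range and replicate 3 far below it (log2 fold change -0.29, SE 0.16, edgeR FDR 0.16). Without CD replicate 1 TIMP3 was called lower (-0.46, edgeR FDR 0.0192). TIMP4 had no count in any library, which allows at most 3 counts among 92491742 reads, or 0.0325 CPM, and the same limit holds for the other 11 members without a count.

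Of the 18 ADAM genes, 5 had no count, 8 had counts too low to test, and 5 were tested, of which 1 was lower and none higher. ADAM17, the sheddase of tumour necrosis factor and of ligands of the epidermal growth factor receptor, was at 23.1, 23.6 and 24.7 CPM in control and at 35.3, 36.6 and 21.0 CPM in CD. CD replicates 1 and 2 were above and replicate 3 below all control libraries. ADAM17 was not called with all libraries (log2 fold change 0.38, SE 0.20, edgeR FDR 0.15) and was called higher without CD replicate 3 (0.56, edgeR FDR 3.31e-04).

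ADAM10, the other main sheddase, which cuts Notch, cadherins and the amyloid precursor protein, was read under the symbol ADA10. It was at 51.1, 45.4 and 51.8 CPM in control and at 66.1, 42.9 and 25.6 CPM in CD (log2 fold change -0.14, SE 0.27, edgeR FDR 0.70), and without CD replicate 3 at 0.10. ADAM19, a sheddase of neuregulins, was spread in the same way, with 157, 137 and 196 CPM in control and 220, 174 and 72.0 CPM in CD (log2 fold change -0.07, SE 0.32, edgeR FDR 0.87), and its sign was reversed without CD replicate 3 (0.23) and without control replicate 3 (0.08). In all 3 sheddases CD replicate 3 was the lowest CD library and below every control library, so the 3 CD libraries did not give 1 direction.

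ADAM9 and ADAM15, 2 further membrane proteases with disintegrin domains, were not called with all libraries (log2 fold changes -0.17 and 0.25, edgeR FDR 0.43 and 0.17). Without CD replicate 1 ADAM9 was called lower (-0.36, edgeR FDR 0.0368) and ADAM15 higher (0.39, edgeR FDR 0.0162). ADAM11, an ADAM of the nervous system that lacks the catalytic zinc site, was at 3.44, 4.26 and 5.18 CPM in control and at 2.52, 2.76 and 2.23 CPM in CD, with no overlap (log2 fold change -0.78, SE 0.23, edgeR FDR 0.0180), and without control replicate 3 it was not called (-0.62, edgeR FDR 0.0945). The 13 other ADAM genes had at most 14 counts each over the 6 libraries. The summed ADAM level was 444 ± 46.5 CPM in control and 471 ± 71.7 CPM in CD (SD, n = 3 each), and the groups overlapped.

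Genes that act on the metalloproteases, or are cut by them, were followed through 7 lists. The lists were put together with earlier results of these data known, and their counts stand beside the 24.8% higher and 22.9% lower of all tested genes. The list of partners of ADAM10 and ADAM17 holds the tetraspanins that escort ADAM10 and the inactive rhomboids that carry ADAM17 to the cell surface. Of its 9 genes 8 were tested, with 3 higher and 3 lower (median log2 fold change 0.14). Among the tetraspanins, TSPAN14 (log2 fold change 0.68), TSPAN5 (0.49) and TSPAN15 (0.36) were higher and TSPAN33 was lower (-0.91, edgeR FDR 2.26e-04). Both inactive rhomboids were lower, RHBDF2 with -0.79 and RHBDF1 with -0.57 (edgeR FDR 0.00774 and 0.00209). FRMD8, which stabilises the complex of ADAM17 with these rhomboids, was not called (edgeR FDR 0.995). All these genes have changes below 1 on the log2 scale and were named after their values were seen. The number higher was between 1 and 4 when 1 library was left out: it was 1 without control replicate 2 or without CD replicate 2, when TSPAN5 and TSPAN15 missed the threshold, 2 without control replicate 1 or 3, and 4 without CD replicate 3, when TSPAN17 was called too.

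The list of proteases that activate metalloprotease precursors also holds their inhibitors and the receptor PLAUR, and its tested genes were all called. Of 10 genes 7 had a row and 6 were tested, 2 higher and 4 lower (median log2 fold change -1.11). FURIN, the convertase that removes the propeptides of ADAMs, ADAMTSs and membrane-type MMPs, was at 1145, 981 and 1230 CPM in control and at 435, 493 and 388 CPM in CD (log2 fold change -1.35, SE 0.14, edgeR FDR 4.00e-05). Its lowest control library was thus at 981 CPM while the highest CD library was at 493 CPM. PCSK6, a related convertase, fell by 1.32 on the log2 scale (edgeR FDR 2.76e-04), and PCSK7 and the plasminogen activator PLAT each fell by 1.11. PLAUR, the urokinase receptor, was at 3.44, 3.32 and 5.62 CPM in control and at 12.4, 12.5 and 12.8 CPM in CD (log2 fold change 1.59, SE 0.23, edgeR FDR 3.08e-04), so all CD libraries were above all control libraries. SERPINE2 was the other gene called higher (0.41), and leaving out control replicate 1, control replicate 2 or CD replicate 2 ended that call and left 1 gene higher.

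Among inhibitors other than the TIMPs and receptors that clear the proteases, 7 of 8 genes had a row and 4 were tested, with 1 lower and none higher. A2M, the plasma protein alpha-2-macroglobulin that traps proteases of all classes, measured 9.31, 8.38 and 9.75 CPM in the control and 4.30, 5.09 and 4.25 CPM in the CD libraries (log2 fold change -1.01, SE 0.18, edgeR FDR 0.00135). RECK, a membrane-anchored MMP inhibitor, was not called (log2 fold change -0.40, edgeR FDR 0.24). LRP1, which takes up protease and inhibitor complexes, was not called with all libraries (0.39, edgeR FDR 0.28) and was called higher without CD replicate 3 (0.65, edgeR FDR 8.73e-06). Of 12 other extracellular metalloproteases and their enhancers, 11 had a row and 4 were tested, with 2 higher and none lower. PAPPA, which cuts binding proteins of insulin-like growth factors, was at 1.15, 0.506 and 1.10 CPM in control and at 7.13, 3.80 and 1.51 CPM in CD (log2 fold change 2.16, SE 0.53, edgeR FDR 0.00730), with CD replicate 3 just above the control libraries. It passed the count filter only with its CD libraries, as control replicate 2 was below the limit of 0.669 CPM. Without CD replicate 1, its highest library, the value was 1.54 (edgeR FDR 0.0156). ECE1 was the other gene called (0.55, edgeR FDR 0.00860), and BMP1, a procollagen C-proteinase, was not (0.08, edgeR FDR 0.67).

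The membrane proteins known to be shed by ADAMs went in both directions. Of 21 genes 16 had a row and 14 were tested, with 5 higher and 4 lower (median log2 fold change 0.18). L1CAM, an adhesion protein shed by ADAM10, was at 0.716, 0.940 and 0.606 CPM in control and at 15.7, 12.9 and 9.80 CPM in CD (log2 fold change 4.09, SE 0.28, edgeR FDR 2.92e-06). It passed the count filter only with its CD libraries, as control replicate 3 was below the limit of 0.669 CPM. CD44, the hyaluronan receptor, was at 123, 116 and 151 CPM in control and at 841, 780 and 702 CPM in CD (log2 fold change 2.58, SE 0.14, edgeR FDR 7.81e-07). The groups lay far apart in both genes. The receptor tyrosine kinase AXL fell by 1.52 on the log2 scale (edgeR FDR 7.41e-04). Among ligands of the epidermal growth factor receptor, BTC was higher (log2 fold change 1.88, edgeR FDR 4.65e-04, past the count filter through CD alone), TGFA was lower (-1.45, edgeR FDR 0.00213), and HBEGF was not called (0.60, edgeR FDR 0.0712) except without control replicate 3 (0.84, edgeR FDR 0.0456). CX3CL1, a membrane-bound chemokine, was called higher only without CD replicate 3 among these fits (0.57, edgeR FDR 0.00685; 0.45 and 0.0925 with all libraries). EREG was lower (-1.10, edgeR FDR 0.0228), and leaving out control replicate 1, control replicate 3 or CD replicate 2 ended that call. The remaining calls were CDH2 and APP, higher, and SDC4, lower. APP was not called in 5 of the 6 fits with 1 library left out, the exception being the fit without CD replicate 3.

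Of 18 matrix proteins that the ADAMTS and MMP enzymes cut, 17 had a row and 9 were tested, with 1 higher and 4 lower (median log2 fold change -0.37). FBN2, a fibrillin of the microfibrils that ADAMTS10 and the ADAMTSL proteins bind, was at 39.5, 38.3 and 46.5 CPM in control and at 4.55, 2.94 and 1.3 CPM in CD (log2 fold change -3.80, SE 0.33, edgeR FDR 1.26e-05). COL3A1, the fibrillar collagen of type III, fell by 1.72 on the log2 scale (edgeR FDR 2.50e-05), and COL1A1 and COL1A2, which form type I collagen, by 0.93 and 0.37; all 3 collagen genes are also on the list of fibroblast markers above. The call of COL1A2 was lost when any of the 3 control libraries or CD replicate 2 was left out. VWF, the substrate of ADAMTS13 and also one of the endothelial markers above, rose from 5 counts in control to 56 in CD (log2 fold change 3.38, SE 0.57, edgeR FDR 8.82e-04), but it passed the count filter through CD alone, so that this call is no support for a direction of the list. The proteoglycan substrates VCAN, BCAN and NCAN had at most 7 counts each over the 6 libraries and could not be tested, and ACAN, the gene of aggrecan, had no row and was not analysed here. FBN1 just missed the threshold (-0.67, edgeR FDR 0.0625), and it was called lower by DESeq2 (FDR 0.0170) and limma-voom (FDR 0.0449) on the same libraries and by edgeR without CD replicate 1 (-0.95) or CD replicate 3 (-0.41).

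AP-1 and ETS factors and RUNX2, a Runt-domain factor, which are known to bind the promoters of several MMP genes, made up the last list. Of 12 genes 11 were tested, with 5 higher and none lower (median log2 fold change 0.56, against 0.06 over all tested genes). JUN was at 37.7, 39.7 and 34.7 CPM in control and at 342, 429 and 416 CPM in CD (log2 fold change 3.41, SE 0.14, edgeR FDR 1.56e-07), with no CD library near the control range. ETS2 had a log2 fold change of 2.08 (edgeR FDR 7.17e-06), FOSL2 of 1.01 (edgeR FDR 7.27e-05) and JUNB of 0.56 (edgeR FDR 0.00722). JUND was at 1.72 (edgeR FDR 9.11e-04) and was not called without CD replicate 3 (1.41, edgeR FDR 0.0666). ETS1, FOS, FOSL1, RUNX2, ETV4 and ETV5 were not called, though FOS was without control replicate 1 and FOSL1 without CD replicate 3. Whether any of these factors acted on the MMP or ADAMTS genes was not measured.

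**Figure D5:**
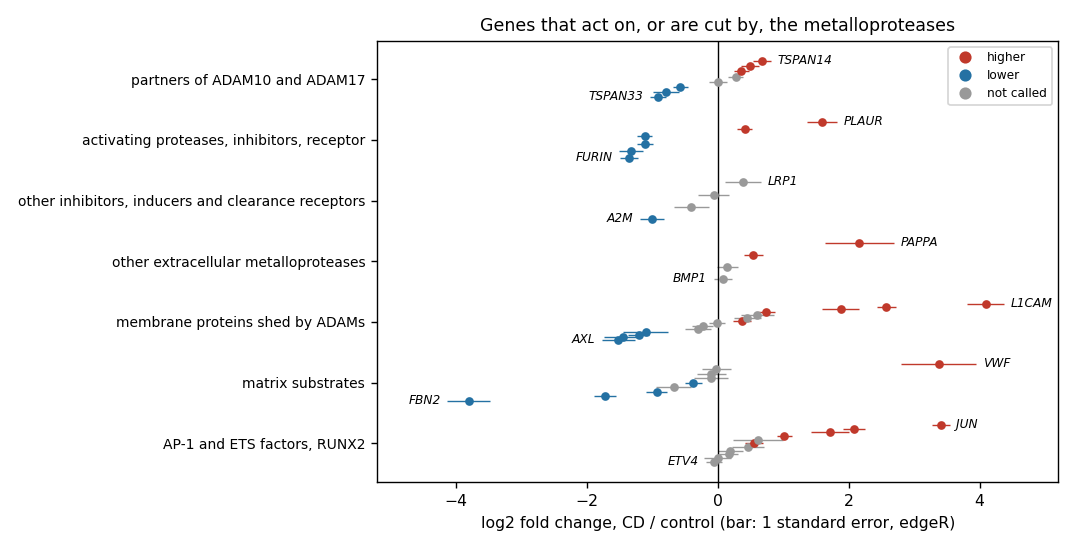
Log2 fold change of CD over control (x axis) for the tested genes of 7 lists (y axis) that act on the metalloproteases or are cut by them, as edgeR estimates with bars of 1 standard error. Red, blue and grey mark genes called higher, called lower and not called, and the lowest and highest gene of each list is named; JUN (3.41) and L1CAM (4.09) are the highest and FBN2 (-3.80) the lowest of the lists.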

How the data were processed

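RNA of 6 Mv1Lu libraries, 3 control and 3 CD, was measured by RNA-seq, and the labels gave the group and number of each. The authors deposited raw counts per gene. Per the study's methods and the submitters' processing notes, reads were trimmed with fastp 0.20.1, aligned to the mink assembly NNQGG.v01 with STAR 2.7.2a and compared with DESeq2 1.30.1 in R 4.0.3. The counting program, and whether it used the strand, are not given in the sources used here, so counts of overlapping, antisense or nearly identical genes are uncertain. The 4 rows of the table that name no gene held 29.3% to 47.2% of a library's reads and were left out. The deposited normalized values were not used, because the identifiers beside them do not match the count table.

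Counts were tested with edgeR 4.0.16 in R 4.3.3 (TMM scaling, filterByExpr with a minimum count of 10, robust quasi-likelihood fit on all 6 libraries without covariates), with Benjamini-Hochberg adjustment over all 12148 tested genes, and the script was tested on simulated data. All 64 symbols were found in the RefSeq table. Alternatives were DESeq2 1.42.0, limma-voom (limma 3.58.1), other scalings and filters, a stricter FDR of 0.01, the replicate block and leaving out each library. Values per library are given for the TIMPs, ADAM10, ADAM17, MMP2, MMP9 and MMP14 and for called members with an absolute log2 fold change of at least 1 (at most 5 per family and direction), and list genes were named by the same limit (at most 4 per list); other genes named with values were added after their values were seen. Some genes of these lists are not reported here and were left out of the list counts. The members and lists were chosen with earlier results of these data known.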

Additional observations from a re-analysis of the deposited data

How the results depend on the processing

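All 14 called members kept their direction under all 14 alternative fits in which they were tested, and 10 of them kept their call in each at an FDR of 0.05. A minimum of 50 counts, which takes ADAM11, ADAMTS3, ADAMTS9, ADAMTSL5 and MMP13 out of the test, left 3 members lower (ADAM 0, ADAMTS 2, ADAMTSL 0), 1 other extracellular metalloprotease higher and 0 matrix substrates higher. An FDR of 0.01 left 4 members lower (ADAM 0, ADAMTSL 0) and 1 partner of ADAM10 and ADAM17 higher, and DESeq2 left 0 ADAMTSL genes lower. With 1 library left out, members higher ranged from 6 to 9 and lower from 5 to 11; ADAM genes higher from 0 to 1 and lower from 0 to 2; ADAMTSL genes higher from 0 to 1; MMP genes lower from 1 to 2; TIMP genes lower from 0 to 1; partners higher from 1 to 4; activating proteases, their inhibitors and receptor higher from 1 to 2; and other inhibitors higher from 0 to 1. Among members not called, the sign reversed for ADAM19 (0.079 without control replicate 3, 0.23 without CD replicate 3, range -0.40 to 0.23 with 1 library left out), ADAMTSL3 (-0.028 without CD replicate 1, range -0.028 to 0.48), MMP20 (-0.019 without control replicate 1, range -0.019 to 0.22) and TIMP1 (-0.10 without CD replicate 3, range -0.10 to 0.21), and so did ADAM10 (0.10 without CD replicate 3, range -0.52 to 0.10). The cause was not tested. The median log2 fold change of all genes lay between 0.037 and 0.090 under the other scalings. The labels do not say whether same-numbered libraries are paired. Correlations of their deviations were -0.024, -0.33 and -0.18, and none correlated best with its own number. With 3 libraries per group these values cannot exclude a shared batch. With the replicate block, ADAMTS10 (-0.43, edgeR FDR 0.0824), JUND (1.69, edgeR FDR 0.0722), APP (edgeR FDR 0.0805), COL1A2 (edgeR FDR 0.0609), TSPAN5 and TSPAN15 missed the threshold and FBN1 passed it (edgeR FDR 0.0225), members lower were 6 and partners higher 1. The 36 untested members had too few counts to test, and 12 of them had none. Low depth and absent expression cannot be told apart for them. Without the filter ADAMTS8 was called among them and 8 members were lower.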

Other observations

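Members below the count filter held few reads but some of them were not silent. ADAMTS2, a procollagen N-propeptidase, had 6, 7 and 6 counts in control replicates 1, 2 and 3 and 3, 2 and 1 counts in CD replicates 1, 2 and 3, and in the fit without the filter its log2 fold change was -1.63 (edgeR FDR 0.0554). ADAMTS4, an aggrecanase, had 3, 3 and 5 counts in control and 7, 10 and 3 counts in CD. ADAMTS17 had 4, 3 and 3 counts in control and the identical numbers in CD. ADAM12, a sheddase of muscle and placenta, had 0, 2 and 1 counts in control and 4, 3 and 4 counts in CD. These counts are too few to place most of the genes on either side of a difference, and 9 of the 24 members in this range had at most 3 counts over all 6 libraries.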
